A study of Bos taurus with 22 samples.

Results

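Transcripts of 23 nuclear genes for the mitochondrial ribosome and for mitochondrial protein import were measured in circulating white blood cells of 22 heifers (Bos taurus). The genes were those whose symbol, in the available part of the study's table of transcripts ranked for fertility, starts with MRPL, MRPS, TIMM or TOMM. They were 23 of the 27607 genes in the count table and of the 13535 genes that passed the filter on low counts, which all 23 passed. By role they were 11 genes of the large ribosomal subunit, 8 of the small subunit and 4 of protein import. MRPS18A and MRPS30 are named after the small subunit but their proteins sit in the large subunit, and they are counted there. Only genes near the top of the fertility ranking carry a name here, so the genes were chosen by the fertility contrast (the p of Fertile against Sub-Fertile), and its values are given as a description with no test. Breed, the interaction of breed with fertility and the correlations between genes were not ranked for the choice. The p of each gene also depends, however, on its spread within groups. That p was taken over both breeds, which favours genes whose fertility difference was alike in them.

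Libraries of polyadenylated RNA, 1 from each heifer, were made from buffy coats taken at the first artificial insemination. Purebred Angus heifers averaged 14 months of age, received a progesterone insert for 7 days, and comprised 7 Sub-Fertile and 5 Fertile animals. Purebred Holstein heifers averaged 12 months, received the insert for 5 days, and comprised 5 Sub-Fertile and 5 Fertile animals. Fertile heifers calved after their first service, whereas Sub-Fertile meant repeated failure to conceive by insemination and bull in Angus, and a need for many inseminations in Holstein heifers. Breed was therefore joined with age, herd management and synchronization protocol, and these cannot be told apart. All cell types of the buffy coat were pooled, and the general leukocyte markers carry no name here, so the cell label was not checked against them. Total counts per library ranged from 12182400 to 49228035 (median 23158374), and each of the 23 genes had between 90 and 4204 counts in a library. Holstein libraries were mostly smaller than Angus libraries, so depth was partly joined with breed. Holstein heifers 1 to 10 had 15502769, 42371919, 35869046, 17198877, 14146133, 17180109, 12393746, 16394123, 17682328 and 38118108 counts. Angus heifers 11 to 22 had 25320003, 18515637, 33617588, 28354518, 31292490, 13154971, 38936648, 20996745, 43616426, 49228035, 12182400 and 43397234 counts. Genes that overlap another gene in the RefSeq annotation of ARS-UCD2.0, namely MRPL22, MRPL45, MRPS7, MRPS24 and TIMM10, are less certain, because no source used here gives the strand setting of the counting. Mitochondrial ribosomal protein genes also have processed copies in mammalian genomes, and although only primary alignments were kept, the sources used here do not say whether those of reads that fit several places were counted.

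Mitochondria keep a small genome of their own, whose protein-coding genes specify subunits of the respiratory chain and of the ATP synthase. These proteins are made inside the organelle by a ribosome whose protein parts are all encoded in the nucleus, translated in the cytosol, and carried inside through the translocases of the outer membrane (TOM) and inner membrane (TIM). Among leukocytes, neutrophils hold few mitochondria and rely mainly on glycolysis, whereas lymphocytes build up mitochondrial translation when they are activated.

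The heifers were not independent in their transcripts. In 8 pairs of heifers the biological coefficient of variation between the libraries was 0.0377 to 0.0828, against 0.0980 to 0.260 in all other pairings. Heifer 1 was paired with 11, 5 with 6, 7 with 16, 8 with 12, 10 with 18, 13 with 22, 14 with 20 and 15 with 19, where heifers 1 to 5 were Holstein Sub-Fertile, 6 to 10 Holstein Fertile, 11 to 17 Angus Sub-Fertile and 18 to 22 Angus Fertile. Of these pairs 4 joined the breeds, 6 joined Fertile with Sub-Fertile heifers, and 0 lay within a group. The labels do not explain them. The main results are therefore given also with the pairs as blocks. That fit left out the 6 heifers of no pair, compared heifers within pairs, and left the comparison of breeds to 4 pairs.

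In the group means, all 23 transcripts were lowest in Holstein Sub-Fertile heifers, and 14 were also highest in Angus Fertile heifers. Over all tested genes, 11.1% had their highest mean in Angus Fertile and their lowest in Holstein Sub-Fertile heifers, against 60.9% of these genes. As the fertility contrast chose the genes, part of this order was set by the choice. The share of all tested genes with their lowest mean in Holstein Sub-Fertile heifers, whatever the highest group, was not counted. The count of 23 therefore has no background here. Averaged over the 23 genes, with log2 CPM (counts scaled by library size) centred per gene, the 5 Holstein Sub-Fertile heifers lay within a narrow band from −0.15 to −0.06, with a mean of −0.12 ± 0.039 (SD, n = 5). The other groups spread more widely, with 0.03 ± 0.104 (SD, n = 5) in Holstein Fertile, −0.01 ± 0.129 (SD, n = 7) in Angus Sub-Fertile and 0.11 ± 0.105 (SD, n = 5) in Angus Fertile heifers. The lowest heifer of all was Angus Sub-Fertile heifer 16 (−0.26), and the highest was Angus Fertile heifer 20 (0.23). In heifer 16, 1 of the 23 genes was above its own mean over all heifers, in heifer 20 it was 22, and in heifer 18 it was 23.

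**Figure D1:**
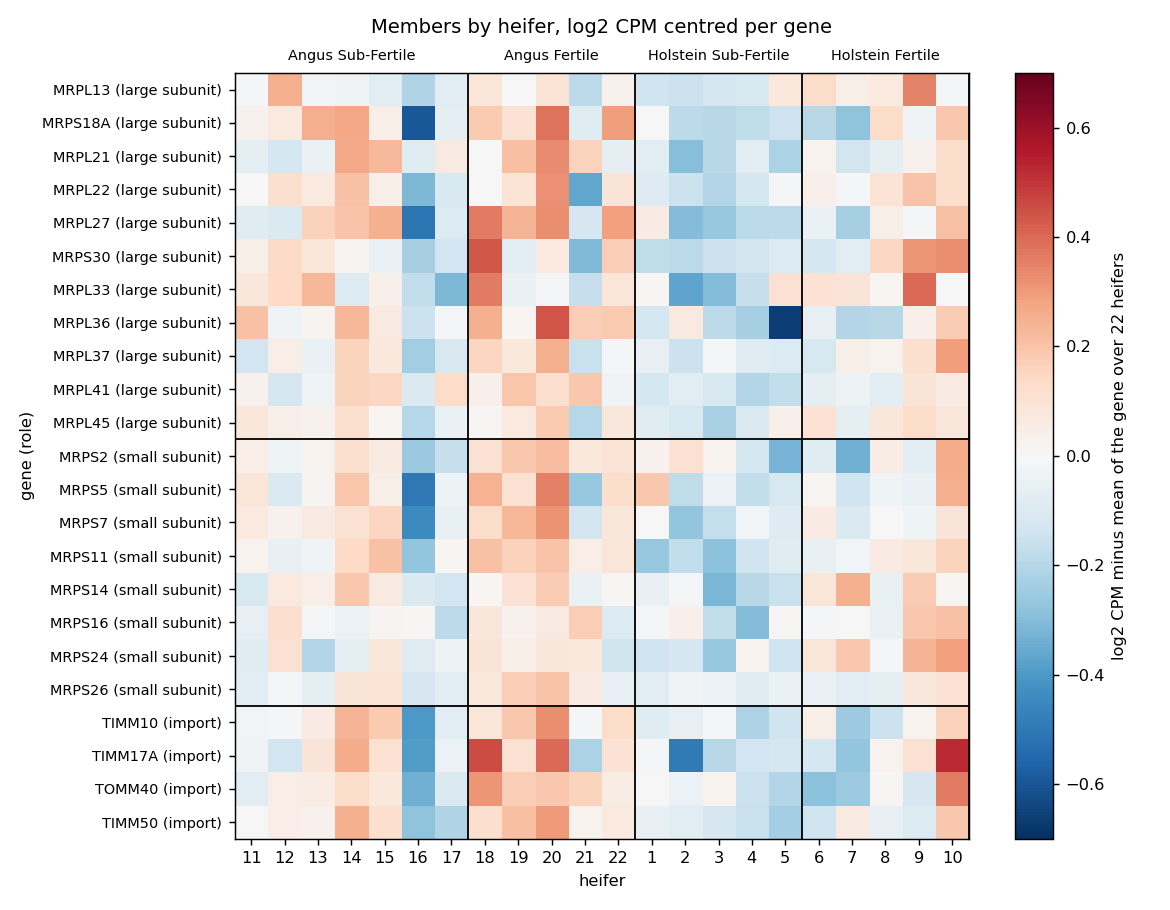
Heat map of log2 CPM, centred on the mean of each gene over 22 heifers (colour, log2 units), for the 23 genes (y axis, by role) in each heifer (x axis, by group). The 5 Holstein Sub-Fertile columns are mostly below the mean (blue), and heifer 16 is the lowest column.

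Most of the transcripts lay slightly lower in Holstein than in Angus heifers, but not in the fit within close pairs. Of the 23 transcripts, 21 were on the lower side in Holstein heifers, with a median breed difference, the log2 fold change of Holstein over Angus, equal to −0.09, against 54.1% and −0.01 over all tested genes. No gene of the 13535 passed at an adjusted p under 0.05 by edgeR (quasi-likelihood, Benjamini-Hochberg, lowest adjusted p = 0.437), while the Wald test of DESeq2 passed 10 genes, 0 of them among the 23. At an unadjusted edgeR p under 0.05, 7 of the 23 genes (30.4%) were lower in Holstein heifers and 0 were higher. The background of that call was 6.08% of all tested genes lower and 4.56% higher, and 10.6% in either direction. The 23 genes vary together, so this count is not one of 7 separate events. They were also chosen by a p that favours a small spread within groups, and all tested genes were not, so the shares are not fully alike. The count was 8 with TMM factors (34.8%, against 5.64% of all genes) and 9 without heifers 10 and 18 (39.1%, against 9%). It was 4 with log2 total counts in the model (17.4%, against 2.1% of all genes) and 4 with a covariate for the first principal component (17.4%, against 1.85%). In the fit with close pairs as blocks it was 1 (4.35%, against 1.04%). There 13 of the 23 fold changes were above 0, and the median of the 23 was 0.01, so that within the pairs the genes were not on balance lower in Holstein heifers. With heifers left out in turn the count was 5 to 10 (21.7% to 43.5%), against 4.12% to 9.92% of all genes. It was 10 (43.5%) without heifer 10 (8.76% of all genes) or heifer 16 (9.92%).

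Large subunit transcripts held 5 of the 7 calls, among 11 genes of which 10 were on the lower side in Holstein heifers. The largest difference was that of MRPL36, a very small protein of the large subunit. Its abundance in Holstein Sub-Fertile heifers was 9.23, 10.5, 8.88, 8.56 and 6.37 CPM, and in Holstein Fertile heifers 9.67, 8.72, 8.79, 10.3 and 11.4 CPM. Angus Fertile heifers had 12, 10.1, 13.7, 11.3 and 11.4 CPM, and Angus Sub-Fertile heifers between 9.06 and 11.8 CPM (median 10.2). All 4 groups overlapped, yet the 5 highest values were of Angus heifers and the lowest was of Holstein heifer 5. The log2 fold change of Holstein over Angus was −0.26 (standard error 0.081), with an adjusted p of 0.437 in edgeR. With breed permuted within fertility groups, in 199584 regroupings, an exact test (two-sided) gave p = 0.00145, not corrected for the choice among genes. Over the 23 genes, 6 had such an exact p under 0.05 and were lower in Holstein heifers (26.1%, against 5.67% of all tested genes). The choice of the 23 by a p that favours small spread bears on this share too. MRPL36 was the only gene of the 23 that was also called with the close pairs as blocks, at −0.23 (standard error 0.108). Its edgeR p there was 0.048, and 0.99985 after adjustment, with the breeds compared in 4 pairs only. With the same blocks the interaction of MRPL36 also passed the unadjusted limit (0.34, adjusted p = 0.718 in edgeR).

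MRPL41, a protein of the mitochondrial large subunit with no bacterial counterpart, differed less but with little spread. Holstein Sub-Fertile heifers had 62.4, 64.3, 62.9, 59.1 and 60.4 CPM, Holstein Fertile heifers 64.9, 66.3, 64.3, 72.2 and 70.7 CPM, and Angus Fertile heifers 69.6, 77.7, 73.8, 77.5 and 66.9 CPM. Angus Sub-Fertile heifers ranged from 62.7 to 75.7 CPM (median 69.4). Every Angus Fertile heifer was above every Holstein Sub-Fertile heifer, and the Holstein groups met at 64.3 CPM without crossing. The log2 fold change for breed was −0.14 (standard error 0.043), with an adjusted p of 0.437 in edgeR and an exact two-sided permutation p of 0.00249. Within the blocks of close pairs it was −0.03.

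MRPL21, MRPL27 and MRPS18A made up the other calls of the large subunit. MRPL21 had 20.9, 18, 19.3, 21 and 19 CPM in Holstein Sub-Fertile and 22.2, 25.6, 27.8, 24.7 and 21.2 CPM in Angus Fertile heifers, with no overlap. Its abundance was 22.5, 20.2, 21.1, 22.5 and 24.1 CPM in Holstein Fertile and 20.3 to 26.6 CPM (median 21.4) in Angus Sub-Fertile heifers, which overlapped both. The breed difference was −0.18 (standard error 0.062, adjusted p = 0.437 in edgeR). That of MRPL27, which lies near the catalytic centre of the ribosome, was −0.20 (standard error 0.082, adjusted p = 0.437 in edgeR), from 26.2 ± 3.08 CPM (SD, n = 10) in Holstein and 29.7 ± 4.93 CPM (SD, n = 12) in Angus heifers. MRPS18A, whose protein belongs to a family with bacterial small subunit relatives, had 30.4 ± 3.37 CPM (SD, n = 10) in Holstein and 34.2 ± 5.44 CPM (SD, n = 12) in Angus heifers, a difference of −0.18 (standard error 0.085, adjusted p = 0.448 in edgeR). Exact permutation gave two-sided p-values of 0.00709 for MRPL21, 0.0386 for MRPL27 and 0.0638 for MRPS18A. The MRPS18A call was lost without any of heifers 2, 3, 4, 5, 6, 7, 9, 12, 13, 14, 18, 20 or 22, with fold changes of −0.19 to −0.16 in those fits. With log2 total counts in the model the calls of MRPL27 (−0.14) and MRPS18A (−0.12) were lost, as they were with the first principal component (−0.10 and −0.09). With the close pairs as blocks the breed difference was 0.01 for MRPL21, 0.03 for MRPL27 and 0.04 for MRPS18A, on the other side of 0.

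The remaining 6 large subunit transcripts were not called for breed. They were MRPL13 and MRPL22, conserved proteins of which the latter lines the exit tunnel of the ribosome, MRPL33, another conserved protein, MRPL37 and MRPS30, which bacteria lack, and MRPL45, which anchors the ribosome to the inner membrane. Their log2 fold changes ranged from −0.05 (MRPS30, standard error 0.079) to 0.01 (MRPL13, standard error 0.059). MRPL13 had 29.9 ± 2.57 CPM (SD, n = 12) in Angus and 30.4 ± 3.41 CPM (SD, n = 10) in Holstein heifers. Genes of the same subunit thus lay between 0.01 (MRPL13) and −0.26 (MRPL36) for breed, with standard errors of 0.043 to 0.085.

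**Figure D2:**
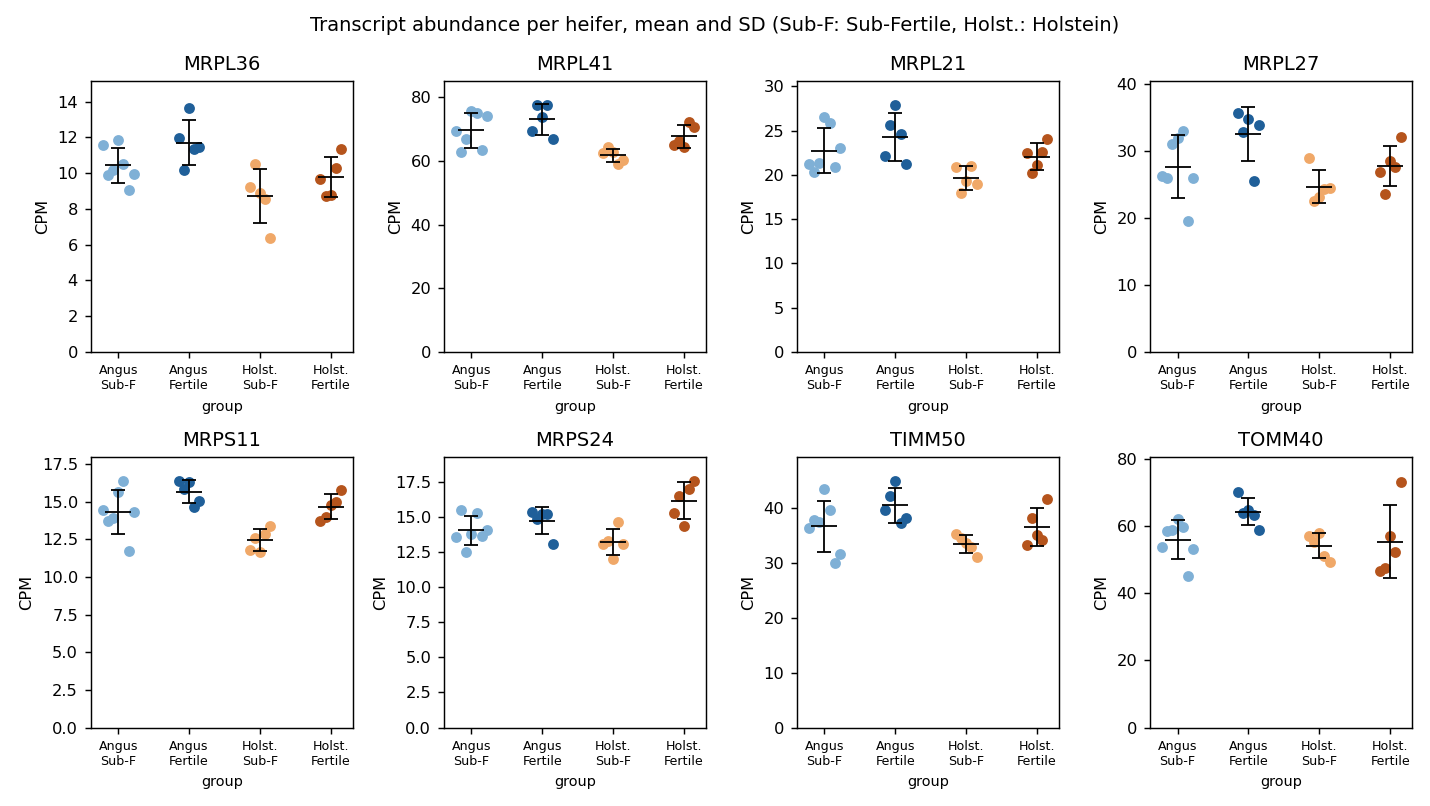
Transcript abundance (y axis, CPM, from 0) of 8 of the genes by group (x axis), with 1 point per heifer and bars for the mean and SD of the group. MRPL41 and MRPS11 are lowest in all 5 Holstein Sub-Fertile heifers relative to both Fertile groups, MRPL36 is highest in Angus Fertile heifers, MRPS24 is highest in Holstein Fertile heifers, and the highest TOMM40 point is Holstein Fertile heifer 10.

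In the small subunit, 7 of 8 transcripts were on the lower side in Holstein heifers and 1 was called. This was MRPS11, a conserved protein of the platform of the subunit. It had 11.8, 12.6, 11.6, 12.9 and 13.4 CPM in Holstein Sub-Fertile heifers, 13.7, 14, 14.8, 15 and 15.8 CPM in Holstein Fertile heifers, and 16.4, 15.9, 16.3, 14.6 and 15.1 CPM in Angus Fertile heifers. Angus Sub-Fertile heifers ranged from 11.7 to 16.4 CPM (median 14.3). All Holstein Sub-Fertile values were below all values of both Fertile groups, and Angus Sub-Fertile heifers covered nearly the whole range. The breed difference was −0.15 (standard error 0.057, adjusted p = 0.437 in edgeR), with an exact two-sided permutation p of 0.00509, and it was −0.05 with the close pairs as blocks.

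The other 7 small subunit transcripts, of MRPS2, MRPS5, MRPS7, MRPS14, MRPS16 and MRPS24, which have bacterial counterparts, and of MRPS26, which has none, ranged from −0.12 (MRPS7, standard error 0.065) to 0.02 (MRPS24, standard error 0.060). MRPS7 passed the unadjusted limit without heifer 16, whose value was the lowest of all (18.6 CPM), and without heifer 21. MRPS26 had the smallest standard error of the small subunit transcripts, 0.040, with 75.9 ± 5.64 CPM (SD, n = 12) in Angus and 73.1 ± 3.37 CPM (SD, n = 10) in Holstein heifers and a log2 fold change of −0.06.

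All 4 import transcripts were on the lower side in Holstein heifers, with a median of −0.14 and 1 call. TIMM50, the receptor of the inner membrane translocase for incoming presequences, had 35.2, 34.5, 33.7, 32.8 and 31 CPM in Holstein Sub-Fertile and 39.7, 42.3, 44.9, 37.2 and 38.3 CPM in Angus Fertile heifers. Holstein Fertile heifers had 33.2, 38.2, 35.2, 34.2 and 41.6 CPM, and Angus Sub-Fertile heifers 30.1 to 43.5 CPM (median 37.4). The first 2 groups did not overlap, while the others overlapped both. The difference was −0.14 (standard error 0.060, adjusted p = 0.437 in edgeR), the exact two-sided permutation p was 0.0287, and the difference was 0.02 with the close pairs as blocks. Without heifer 5, 6, 14 or 20 the call was lost, with fold changes of −0.13 to −0.12, and so it was with log2 total counts (−0.10) or the first principal component (−0.10) in the model.

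The other import genes were TOMM40, the pore of the outer membrane, TIMM17A, part of the inner membrane channel, and TIMM10, a small chaperone of the space between the membranes. TOMM40 had 57, 55.4, 57.9, 51.2 and 49.3 CPM in Holstein Sub-Fertile, 46.6, 47.7, 57.1, 52.4 and 73.3 CPM in Holstein Fertile, and 70.3, 64, 64.8, 63.4 and 58.9 CPM in Angus Fertile heifers. Angus Sub-Fertile heifers ranged from 45.1 to 62.1 CPM (median 58.7). The value of 73.3 CPM was of heifer 10 and the value of 70.3 CPM of heifer 18, a close pair, and they were the highest of all heifers. Without heifer 10, the breed difference of TOMM40 went from −0.12 (standard error 0.071) to −0.17 (standard error 0.064), and its interaction from −0.16 (standard error 0.142) to −0.29 (standard error 0.116). Both then passed the unadjusted limit of 0.05, with adjusted p-values of 0.319 and 0.273 in edgeR. TIMM17A and TIMM10 gave −0.15 (standard error 0.098) and −0.14 (standard error 0.069), and exact permutation gave two-sided p-values of 0.184 and 0.0552. TIMM10 passed the unadjusted edgeR limit of 0.05 with TMM factors and without heifer 3, 10, 16 or 21, and TIMM17A passed it without heifer 10.

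**Figure D3:**
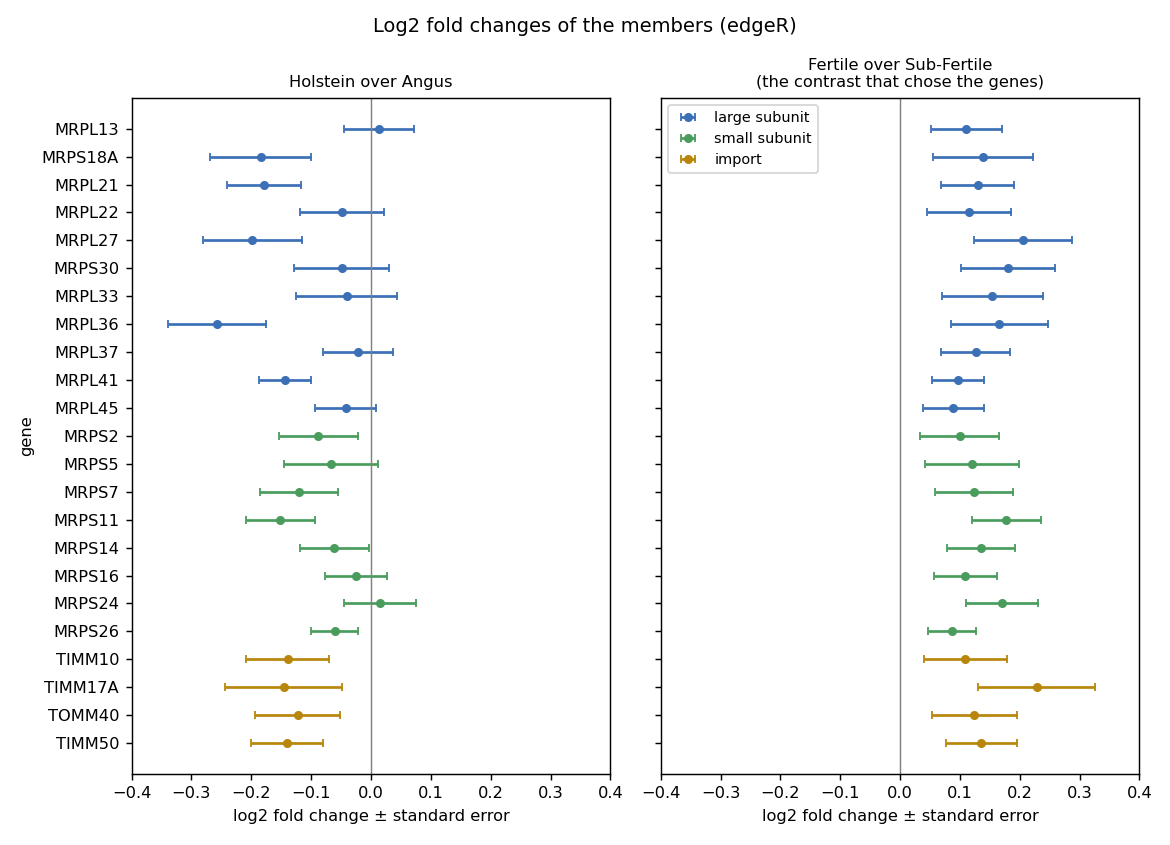
Log2 fold changes with standard errors (x axis) of the 23 genes (y axis, coloured by role) for Holstein over Angus heifers on the left and Fertile over Sub-Fertile heifers on the right. On the left 21 genes lie below 0, with MRPL36 the farthest at −0.26, and on the right, in the contrast that chose the genes, all 23 lie above 0.

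As a description of the contrast that chose the genes, all 23 transcripts were higher in Fertile heifers. Over all tested genes 6.12% were higher in Fertile heifers with a p no larger than the largest among the 23, and 11.1% had such a p in either direction. No gene of the 13535 passed at an adjusted p under 0.05 for fertility in edgeR or in DESeq2, and at an unadjusted edgeR p under 0.05 there were 225 genes higher (1.66%) and 129 lower in Fertile heifers. The differences were small, with a median log2 fold change of 0.13 and values from 0.09 (MRPS26, standard error 0.040) to 0.23 (TIMM17A, standard error 0.097). The medians of the roles were close to each other, at 0.13 in the large subunit, 0.12 in the small subunit and 0.13 in import. In linear terms MRPL27 was 1.15-fold and TIMM17A 1.17-fold higher in Fertile heifers. The highest TIMM17A values were of heifers 10 and 18, a close pair (33.5 and 32.0 CPM). Without these heifers the log2 fold change of TIMM17A was 0.12 (standard error 0.088), and the median of the 23 genes was 0.11. With the close pairs as blocks TIMM17A was at 0.05 (standard error 0.047).

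Each of the 23 genes kept its direction in Angus heifers alone (median 0.11) and in Holstein heifers alone (median 0.16). The same heifers and contrast chose the genes. This likeness and the values below are therefore a description, and were partly set by the choice. In Holstein heifers, 2 transcripts, MRPL41 and MRPS11, were higher in every Fertile than in every Sub-Fertile heifer (8.7%, against 0.931% of all tested genes). In Angus heifers 0 transcripts parted the groups in this way (0.0517% of all genes). Every Angus Fertile heifer was above every Holstein Sub-Fertile heifer in 5 transcripts, MRPL21, MRPL41, MRPS11, TOMM40 and TIMM50 (21.7%, against 0.931% of all genes). The choice of the genes favoured such separation, so the excess of these shares over those of all genes is not a separate result. With the close pairs as blocks 22 of the 23 were above 0, with a median of 0.07, and MRPS16 lay below 0 at −0.03. Just inside the end of the ranking lay MRPS5 (0.12, standard error 0.079) and MRPS2 (0.10, standard error 0.066), ranked 1478 and 1502 among the 13535 genes in the fit made here, and genes just outside it carry no name.

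Whether the fertility difference depended on breed was tested with the interaction. At an unadjusted edgeR p under 0.05 there were 0 of the 23 genes, against 10.4% of all tested genes, and 0 genes passed after adjustment (lowest adjusted p = 0.463). The Wald test of DESeq2 gave 1 of the 23 at an unadjusted p under 0.05 (4.35%, against 12.2% of all genes) and 0 at an adjusted p under 0.05. The choice favoured genes with a like fertility difference in both breeds, so part of these low shares was set by it. They do not show that these genes depend on breed less than others do. The difference of Fertile over Sub-Fertile was larger in Holstein heifers for 13 of the 23 genes, with a median interaction of 0.06 against −0.02 over all genes, where 47.1% were above 0. MRPS24, the mitochondrial relative of a bacterial protein at the mRNA entry of the ribosome, had the largest value, 0.22 (standard error 0.114, adjusted p = 0.497 in edgeR). It had 13.1, 13.3, 12, 14.7 and 13.1 CPM in Holstein Sub-Fertile and 15.3, 16.5, 14.3, 17 and 17.6 CPM in Holstein Fertile heifers, while Angus Fertile heifers had 15.4, 14.9, 15.2, 15.2 and 13.1 CPM and Angus Sub-Fertile heifers 12.5 to 15.5 CPM (median 13.8). The Holstein groups overlapped by 1 heifer on each side and the Angus groups overlapped widely. MRPS24 was the gene that passed the unadjusted limit in the Wald test (adjusted p = 0.367), with TMM factors (adjusted p = 0.423), and without heifer 4, 8 or 13. TOMM40 passed it below 0 without heifers 10 and 18 (−0.25, adjusted p = 0.280), and MRPL36 above 0 with the close pairs as blocks (0.34, adjusted p = 0.718).

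**Figure D4:**
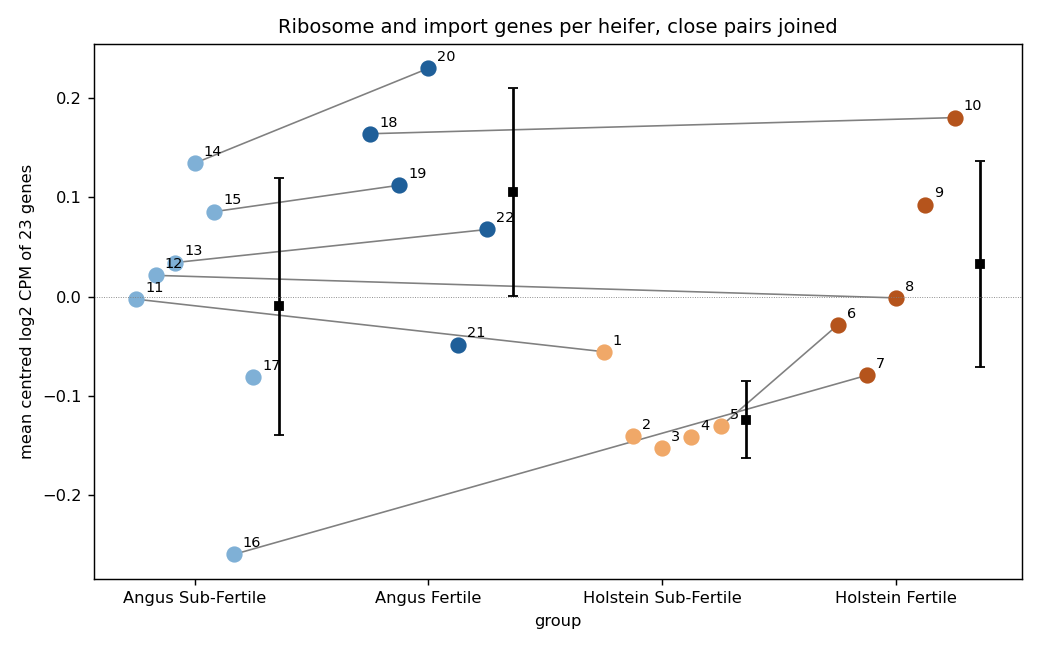
Mean of the centred log2 CPM of the 23 genes (y axis, log2 units) for each heifer (numbered points) by group (x axis), with black squares and bars for the mean and SD of the group and grey lines joining the 8 close pairs. The 5 Holstein Sub-Fertile heifers lie between −0.15 and −0.06, and of the 4 lines that join the breeds those from heifers 1, 8 and 10 are nearly level (−0.05 to 0.02).

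In the mean of the 23 genes the partners of the close pairs differed by 0.02 to 0.18 in size, where the SD within groups was 0.104. Other pairings were not compared in this mean. Of the 4 pairs that joined the breeds, the Holstein minus Angus difference in the mean of the 23 genes was −0.05 in pair 1 and 11, −0.02 in pair 8 and 12, 0.02 in pair 10 and 18, and 0.18 in pair 7 and 16. The last of these compares a Holstein Fertile heifer with heifer 16. Pair 7 and 16 and pair 8 and 12 each set a Holstein Fertile against an Angus Sub-Fertile heifer. Breed and fertility cannot be told apart in them, and their values count again among the fertility pairs. Of the 6 pairs that joined Fertile with Sub-Fertile heifers, the Fertile heifer was higher in 5, by 0.03 to 0.18, and differed by −0.02 in pair 8 and 12. Within Angus heifers, the Fertile partner was higher in 21 of the 23 genes in pair 14 and 20, in 19 in pair 13 and 22, and in 15 in pair 15 and 19. These heifers and the fertility contrast chose the genes. The fertility values within pairs are therefore a description, and were partly set by the choice.

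Within groups the transcripts varied together over the heifers. With the 4 group means removed, the median Pearson correlation over the 253 pairs of genes was 0.42 over 22 heifers, and 94.5% of the pairs were above 0. Over all pairs of tested genes the median was 0.05, with 55.9% above 0. Correlations between transcripts share the libraries and their depth, and are given as a description. Import genes were the tightest set, with a median of 0.69 among 6 pairs, none under 0.57, while the large subunit had 0.41 and the small subunit 0.38. Across the 2 subunits the median was 0.37 over 88 pairs, near the medians within them. Import genes followed the small subunit at 0.58 and the large subunit at 0.53.

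The highest correlation was that of MRPL22 with MRPL45 (0.93), and the lowest that of MRPL33 with MRPL41 (−0.31). Against the mean of all other genes of the set, MRPL27 (0.88), MRPS5 (0.87), MRPL37 (0.86), TIMM10 (0.86) and MRPS18A (0.85) followed it most closely. MRPS16 (0.20), MRPS24 (0.24) and MRPL33 (0.32) followed it least. MRPL41 (0.34) and MRPL36 (0.48), which had the lowest breed p-values, were thus not the genes that followed the set most closely. For the whole set the median was 0.39 with TMM factors, 0.46 when heifers 10 and 18 were left out, and 0.46 after the first principal component was removed too.

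**Figure D5:**
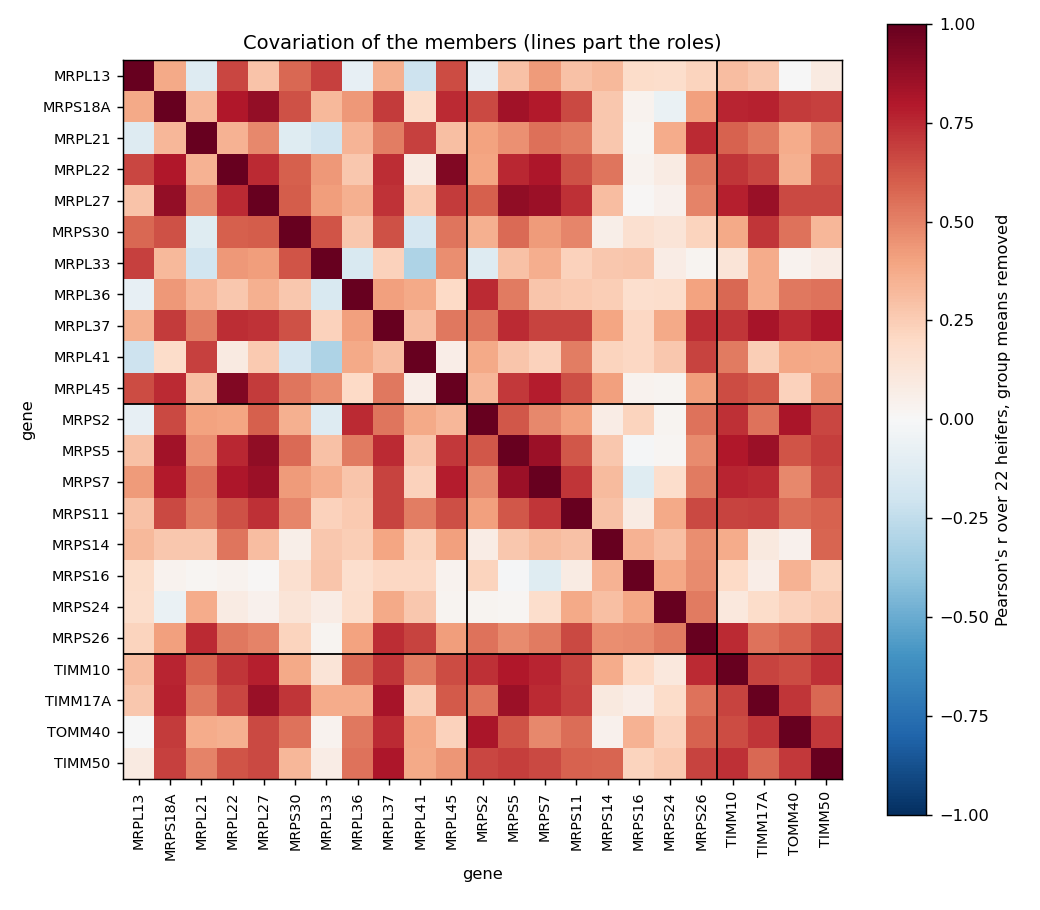
Pearson correlation (colour, from −1 to 1) of log2 CPM between each pair of the 23 genes over 22 heifers with the 4 group means removed, with lines between the roles. Most pairs are above 0, the pairs among import genes and those among MRPS18A, MRPL22, MRPL27, MRPS5 and MRPS7 are dark, and MRPS16 and MRPS24 are pale.

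The mean of the set moved with measures of the whole library. Over the 22 heifers with group means removed, its correlation with log2 total counts was 0.52 (Spearman rho 0.38), and 0.38 without heifers 20 and 21. The first principal component was taken from the 500 genes of highest variance, 0 of the 23 among them, and explained 43.3% of that variance. With it the correlation was −0.44 (rho −0.38), and −0.52 without heifers 22 and 13. Of the genes with a name here outside the pathway lists, those most like the mean of the set over the 22 heifers were THOC6 (0.91) and EIF3B (0.91), for mRNA export and for translation initiation in the cytosol, CDC23 (0.90), of the anaphase-promoting complex, EMG1 (0.88), for cytosolic ribosome assembly, and UQCRC1 (0.88), of respiratory complex III. None of these 5 was called for breed, with log2 fold changes of −0.15 to −0.04.

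Other genes of the same pathways could be followed only where they carry a name, which means that they too stood near the top of the fertility ranking. Beside the 4 import genes of the set, 4 of the listed import genes have a name, and 2 were lower in Holstein heifers at an unadjusted edgeR p under 0.05. They were GRPEL1, the nucleotide exchange factor of the import motor (−0.11, standard error 0.042), and GFER, an oxidase that folds proteins between the membranes (−0.16, standard error 0.065), both with an adjusted p of 0.437. DNAJC19, a co-chaperone of the motor, was at −0.03, and PMPCB, a subunit of the protease that removes presequences, at 0.05. AURKAIP1, a further small subunit protein, was at −0.11 (standard error 0.055) and was not called. Of the translation and assembly factors, GFM1, MTFMT, MRM1 and DDX28 were named and 0 were called, with values from −0.11 to 0.06. The cytosolic synthetases FARSB, HARS1 and QARS1 gave 0 calls for breed, from −0.09 to −0.03. With group means removed, the mean of their log2 CPM had a correlation of 0.87 with the mean of the set. This was the highest among the lists, against 0.79 for the 4 import genes outside the set. Covariation with the set was thus not particular to mitochondrial genes.

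The only named gene of the mitochondrial genome was ATP8, a subunit of the ATP synthase and thus a product of the ribosome these genes build. ATP8 overlaps ATP6 in that genome, so its counts are uncertain. Its abundance was 71.5 ± 30.0 CPM (SD, n = 7) in Angus Sub-Fertile, 43.8 ± 11.8 CPM (SD, n = 5) in Angus Fertile, 74.9 ± 12.4 CPM (SD, n = 5) in Holstein Sub-Fertile and 81.6 ± 12.5 CPM (SD, n = 5) in Holstein Fertile heifers. For breed it was higher in Holstein heifers at the unadjusted limit, by a log2 fold change of 0.46 (standard error 0.182, adjusted p = 0.437 in edgeR), the opposite direction to most of the nuclear genes. Its interaction passed the unadjusted limit (0.83), and its correlation with the mean of the set within groups was −0.44 over 22 heifers. TFB1M, which acts on mitochondrial ribosomal RNA, and the transcription factor YY1 were at 0.01 and 0.07 for breed and were not called.

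In bulk white blood cells, fewer cells of a type and less RNA per cell cannot be told apart. Few markers of cell types carry a name here. Of 12 neutrophil markers CSF3R, MMP9 and TGM3 are named, with a summed abundance of 229 to 527 CPM in Angus Sub-Fertile, 241 to 390 CPM in Angus Fertile, 261 to 651 CPM in Holstein Sub-Fertile and 118 to 353 CPM in Holstein Fertile heifers, and 0 of the 3 were called for breed. In the contrast that gave them their names all 3 were lower in Fertile heifers, opposite to the 23 genes. The log2 fold changes were −0.43 (standard error 0.184) for CSF3R, −0.74 (standard error 0.368) for MMP9 and −0.98 (standard error 0.453) for TGM3. Of 9 B cell markers BANK1 is named, with 265 to 379, 245 to 381, 342 to 512 and 239 to 446 CPM in the same order of groups, and it was higher in Holstein heifers at the unadjusted limit (0.25, standard error 0.099, adjusted p = 0.437 in edgeR). Platelet markers (2 of 7 named) and eosinophil and basophil markers (2 of 9 named) gave 0 calls, and no T cell, natural killer cell, monocyte or red blood cell marker has a name. For Fertile over Sub-Fertile heifers these other named markers went both ways. The platelet markers ITGA2B and GP9 were at 0.28 and 0.63, and BANK1 at −0.16. The eosinophil and basophil markers CCR3 and FCER1A were at 0.32 and −0.28. With group means removed, the correlation with the mean of the set was −0.13 for the mean log2 CPM of the neutrophil markers and 0.12 for BANK1. By marker it was −0.34 for CSF3R, −0.13 for TGM3 and 0.05 for MMP9, which had group means of only 1.31 to 3.58 CPM. The part of cell composition in the breed and fertility values was not tested. All 23 named genes of DNA replication and the cell cycle were higher in Fertile heifers, in the contrast that gave them their names, and 0 were called for breed. The mean of their log2 CPM, with group means removed, had a correlation of 0.34 with the mean of the set.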

How the data were processed

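RNA sequencing (stranded mRNA libraries, paired reads) measured transcripts in white blood cells from each of 22 heifers. The authors aligned reads to ARS-UCD1.2 with hisat2, kept primary alignments and dropped duplicate reads using Samtools and biobambam2, and deposited raw counts of fragments per Ensembl gene from featureCounts, with no normalization. Groups came from the sample labels. Total counts of 12182400 to 49228035 limit the precision of a gene at 90 counts far more than that of a gene at 4204.

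From the counts, CPM were computed with total counts of the tested genes as library sizes, and 13535 genes were tested. These had a CPM above 1 in 5 or more heifers, where CPM for this filter came, as in the authors' code, from all counts divided by TMM factors, which cancel when each library is scaled to its own sum. Their further filters on FPKM and biotype were not applied. The edgeR 4.0.16 quasi-likelihood test (R 4.3.3, robust) was fitted to all genes with breed and fertility terms, and with their interaction in a second model. Benjamini-Hochberg adjustment ran over all tested genes. The standard error is the size of the log2 fold change over the root of the F statistic. Single genes had an exact permutation test of breed within fertility groups (Python 3.11.15), which takes heifers as independent. Correlations used log2 CPM with a prior count of 2 and group means removed.

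Names came from the 1401 rows of a supplementary table at hand, 1229 of them named; its other columns were not used. All 23 symbols were matched in the RefSeq table of ARS-UCD2.0, which served for neighbouring genes only. Close pairs are heifers each nearest to the other, with a biological coefficient of variation under 0.5 of the median of all pairings, over genes with a mean CPM above 20. Genes named are all 23, up to 4 of each pathway list with the smallest breed p, and the 5 named genes outside the lists most correlated with the mean of the 23. The members and lists were chosen with earlier results of these data known. Alternatives were TMM factors, DESeq2 size factors, other filters, the Wald test of DESeq2 1.42.0, estimation that was not robust, each heifer left out, heifers 10 and 18 left out, close pairs as blocks, and log2 total counts or the first principal component as covariates. 1 item that the rule for members also finds is not reported here. Genotypes, proteins and gene sequences were not analysed here.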

Additional observations from a re-analysis of the deposited data

Results flagged for a closer look

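In 8 of 92 groups of values (23 genes in 4 groups) the highest or lowest heifer lay far from the others of its group by Dixon's criterion, which flags about 1 in 20 groups by chance. The heifers differed from gene to gene. MRPL13 was 35.6 CPM in Angus Sub-Fertile heifer 12, against 26.0 to 29.8 CPM in the other heifers of the group, and 31.6 CPM in Holstein Sub-Fertile heifer 5, against 27.0 to 27.8 CPM. MRPS18A was 32.2 CPM in Holstein Sub-Fertile heifer 1, against 28.1 to 29.1 CPM. MRPL27 was 25.6 CPM in Angus Fertile heifer 21, against 32.8 to 35.7 CPM. MRPL33 was 18.9 CPM in Holstein Fertile heifer 9, against 14.3 to 15.4 CPM. MRPL45 was 36.8 CPM in Holstein Fertile heifer 7, against 40.7 to 42.2 CPM. MRPS7 was 18.6 CPM in Angus Sub-Fertile heifer 16, against 24.4 to 28.1 CPM. MRPS24 was 13.1 CPM in Angus Fertile heifer 22, against 14.9 to 15.4 CPM.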

How the results depend on the processing

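The fit with the close pairs as blocks changed most. It gave a median breed difference of 0.015 in place of −0.09, with 1 gene called lower in Holstein heifers in place of 7, and changed the sign of the log2 fold change in 13 of the 23 genes for breed, 1 for fertility and 8 for the interaction. Among genes called in either fit it turned the breed difference of MRPS18A (0.040), MRPL21 (0.015), MRPL27 (0.028) and TIMM50 (0.024) and the interaction of MRPL36 (0.34), and for fertility it turned MRPS16 (−0.030). It holds fewer heifers and compares breeds in 4 pairs only. The count for breed was 4 with log2 total counts and 4 with the first principal component as covariate, where the cause was not tested, and 7 to 9 under the other alternatives with all or all but 2 heifers. Leaving out heifers in turn gave 5 to 10 genes lower and 0 higher for breed, medians of −0.12 to −0.07 for breed, 0.11 to 0.15 for fertility and 0.0020 to 0.09 for the interaction, and 0 to 1 genes called for the interaction on each side. For the interaction 1 gene above 0 was called in place of 0 with TMM factors, in the Wald test and with blocks, and 1 below 0 without heifers 10 and 18. Of all genes called lower or higher for breed, 57.2% were lower, against 26.3% with log2 total counts in the model. No gene of the 23 passed an adjusted p under 0.05 for breed or interaction under any alternative run.

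The labels pair no heifers, and the close pairs used as blocks were found in the counts. Depth limits MRPL36 most, which held the fewest counts of the 23 genes.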
